A study of Homo sapiens with 18 samples.

Results

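The 33 genes described here encode proteins of homologous recombination and of the Fanconi anemia pathway. They were taken by symbol from the table of raw counts, which held all 33 among 60623 genes, and all 33 passed the filter on low counts that left 18151 genes for testing. Homologous recombination mends broken DNA by copying the intact sister chromatid: the break is sensed and its ends are trimmed to single strands, BRCA proteins load the strand exchange recombinase, helper proteins carry the exchange, and nucleases cut the joined molecules apart. The Fanconi anemia pathway acts where strands are cross-linked, through a core complex that attaches ubiquitin to FANCD2 and FANCI. Both pathways are known to act mostly while DNA is being copied, and many of their genes are known to be transcribed on entry into S phase.

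Poly(A) RNA was sequenced from IMR90, a line of wild type human lung fibroblasts, in 6 groups of 3 libraries. IR_RG7388 and IR_HDM201 cells were irradiated and then given RG7388 (idasanutlin) or HDM201 (siremadlin), which block MDM2, the ubiquitin ligase that targets p53 for degradation, and IR_DMSO cells were irradiated and given the solvent DMSO. Prolif_RG7388, Prolif_HDM201 and Prolif_DMSO cells were proliferating cells given the same agents. In irradiated cells the agents were present for 7 days, from day 4 after irradiation to collection on day 11, and no separate schedule is labelled for proliferating cells. The compounds were used at different doses. All groups come from this 1 line, each well of a culture plate was counted as a replicate in the study in general, and the labels name no separate irradiations, so the p-values cover the variation among the libraries at hand, and this may be technical.

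Libraries held 21609198 to 66647700 counted reads. Levels are given as CPM, counts per 1000000 reads after scaling by TMM (trimmed mean of M values). Changes are log2 fold changes ± standard error from edgeR's quasi-likelihood test, and a gene was called higher or lower at a Benjamini-Hochberg adjusted p under 0.05 over all 18151 genes. Prolif_HDM201 replicate 3 lay farthest from its group mates among all 18 libraries (root mean square log2 distance 1.16 over the 2000 most variable genes), and IR_DMSO replicate 1 lay farther (0.873) than the other IR_DMSO libraries (0.624 and 0.642). IR_HDM201 replicates 1 and 2 (1.05 and 0.988), Prolif_DMSO replicate 1 (1.01) and Prolif_HDM201 replicate 1 (0.891) lay farther from their mates than IR_DMSO replicate 1 did, and each of these was left out in turn below. Summed fibroblast markers ranged from 17170 to 57640 CPM over the libraries, leukocyte markers from 0.0882 to 1.53 CPM and endothelial markers from 0.606 to 2.98 CPM. Of the 4 epithelial markers, KRT19 reached 24.2 to 139.5 CPM while EPCAM, CDH1 and KRT5 stayed at or below 1.32, 0.306 and 0.133 CPM. In bulk RNA, fewer cells that transcribe a gene and less RNA per cell cannot be told apart.

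In proliferating cells the pathway was transcribed unevenly. By FPKM, a level per transcript length, FANCI was highest in Prolif_DMSO (26.2 ± 2.60, SD, n = 3), followed by the core complex gene FANCG (18.04 ± 1.41), RAD51C (16.9 ± 1.37) and FANCA (16.4 ± 0.704). At the low end stood XRCC2 (2.26 ± 0.214 FPKM), FANCM (2.22 ± 0.343), BRCA2 (2.12 ± 0.163) and FANCB (2.12 ± 0.307), which did not differ beyond their spread. RAD52 was listed without a value in 1 Prolif_DMSO library and at 2.48 and 2.72 FPKM in the other two, so it has no place in this order. In IR_DMSO the order was different: RAD51C (17.5 ± 2.52 FPKM), NBN (13.5 ± 2.73) and RAD50 (13.2 ± 1.32) stood above FANCI (6.90 ± 1.37) and FANCG (5.15 ± 0.143), and BRCA2 (0.710 ± 0.284), XRCC2 (0.425 ± 0.0790) and FANCB (0.398 ± 0.0463) remained at the bottom. The order between genes depended on the measure. Ranks by FPKM and by CPM per kilobase of exon had a Spearman correlation of 0.64 over the 33 genes in Prolif_DMSO. These measures differ in the tool that assigned reads to genes and in the length used, and the part of each was not tested. In Prolif_DMSO RAD51C ranked 3 by FPKM and 28 by CPM per kilobase, RAD50 16 and 32, and NBN 7 and 14. FANCI ranked 1 and 6, and FANCG 2 and 3.

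Since most of these genes fell after irradiation, the region around their transcription starts was read for letters that cell cycle factors are known to bind. Windows of 250 bases before to 50 bases after each start were available for 29 of the 33 genes from RefSeq (GRCh38.p14). The E2F letters TTTGGCGC, TTTCCCGC, TTTCGCGC or TTTGCCGC, searched on both strands, occurred in 7 of these 29 genes (24.1%), against 4.0% of 27305 genes with such a window. In the 250 bases before the start alone the share was 3 of 29 (10.3%), against 3.4%. The CCAAT box, searched as CCAAT on both strands, was found in 12 of 29 genes (41.4%) and in 39.7% of all genes, and the CHR letters TTTGAA in 2 of 29 (6.9%) and in 18.2% of all. The 5 genes below held E2F letters and fell both with irradiation and with RG7388, and each stretch of 30 bases is printed 5′ to 3′ on the gene's strand with those letters in capitals.
EXO1: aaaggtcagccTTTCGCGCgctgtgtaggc
FANCA: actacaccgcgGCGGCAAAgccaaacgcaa
FANCD2: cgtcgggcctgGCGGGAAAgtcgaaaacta
MND1: cggcgtagtcgGCGCCAAAatcaaacgcgt
XRCC2: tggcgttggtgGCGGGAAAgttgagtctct
These stretches lie at chr1:241848197-241848226 (plus strand), chr16:89816801-89816830 (minus strand), chr3:10026424-10026453 (plus strand), chr4:153344643-153344672 (plus strand) and chr7:152676102-152676131 (minus strand). Counted from 0 at an annotated start, the first capital letter falls at base 4 in EXO1, -172 in FANCA, -2 in FANCD2, 5 in MND1 and 21 in XRCC2. FANCC and GEN1 were the other genes with E2F letters. All 7 genes with these letters were called lower after irradiation (median log2 change -2.71), as were 17 of the 22 without them (median -1.33). Of all genes tested, 25.3% were called lower. Changes of genes outside the 33 that hold these letters were not examined. With RG7388 in irradiated cells the medians were -0.63 over the 7 genes and -0.53 over the 22, and with HDM201 they were -0.09 over the 7 and -0.23 over the 22. A match of letters describes the sequence only.

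**Figure D1:**
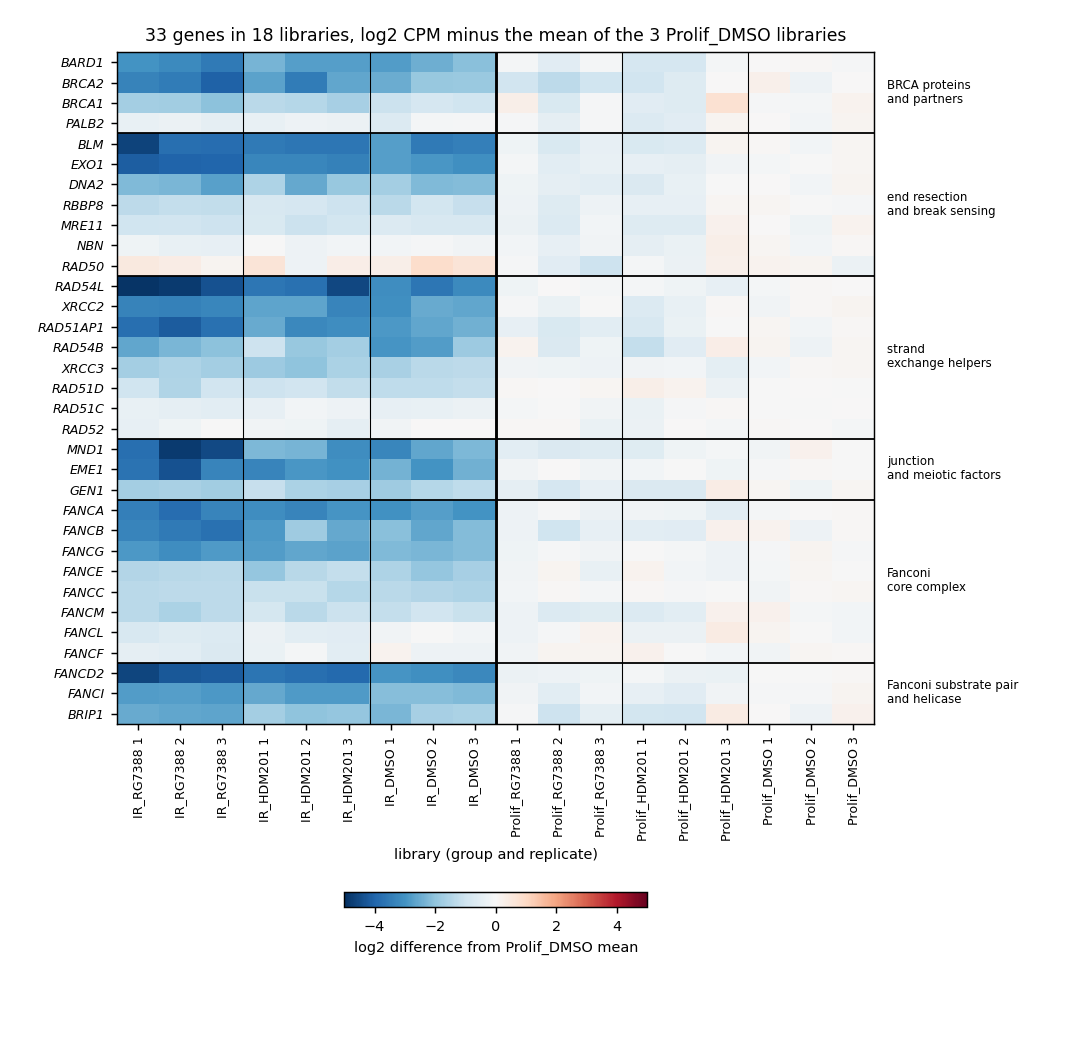
Log2 CPM of the 33 genes (rows, by role and then by change with irradiation) in the 18 libraries (columns), each as the difference from the mean of the 3 Prolif_DMSO libraries. The 9 irradiated libraries are lower (blue) for most genes and lowest with RG7388, while PALB2, NBN, RAD52, FANCF and FANCL stay near 0 in IR_DMSO and RAD50 is above 0. Prolif_HDM201 replicate 3 differs from both its mates.

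The first comparison asked how these genes stood in irradiated cells given DMSO. Of the 33 genes, 27 were called lower in IR_DMSO than in Prolif_DMSO and 1, RAD50, was called higher, where 25.3% of all genes tested were called lower and 26.3% higher. Their median log2 change was -1.84, against 0.05 over all genes tested, and the largest falls were those of RAD54L (-3.28 ± 0.18), BLM (-3.18 ± 0.25), FANCD2 (-3.06 ± 0.12), FANCA (-2.91 ± 0.14) and EXO1 (-2.90 ± 0.13). PALB2, NBN, RAD52, FANCF and FANCL were not called. The 20 cell cycle genes followed beside them (MCM2 to MCM7, PCNA, MKI67, CDK1 and others) were all called lower, with a median of -2.66. The mean log2 CPM of the 33 genes was 2.57 to 2.70 in IR_DMSO libraries and 4.15 to 4.22 in Prolif_DMSO libraries, and that of the 20 cell cycle genes 4.26 to 4.37 and 6.92 to 6.95. Of 8 fibroblast markers 7 were also called lower, with a summed level of 17170 to 25370 CPM in IR_DMSO and 44070 to 49750 CPM in Prolif_DMSO, and the summed epithelial markers, nearly all KRT19, reached 40.4 to 50.6 CPM in IR_DMSO and 24.9 to 26.1 CPM in Prolif_DMSO. The part of the cell cycle genes and of these markers in the fall of the repair genes was not tested.

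BRCA1 and BARD1 form a ubiquitin ligase that favors recombination, PALB2 bridges BRCA1 to BRCA2, and BRCA2 places the recombinase on single strands. Among these 4, BARD1, BRCA2 and BRCA1 fell. BARD1 (chr2:214725646-214809683) had 2.64, 3.38 and 4.39 CPM in IR_DMSO, against 18.5, 19.1 and 17.9 CPM in Prolif_DMSO. The groups lay far apart, and the fall was 5.35-fold (-2.42 ± 0.21, adjusted p = 3.47e-09). BRCA2 averaged 4.72 ± 1.05 CPM in IR_DMSO and 19.6 ± 3.19 CPM in Prolif_DMSO (-2.07 ± 0.25, adjusted p = 1.12e-06). BRCA1 fell less (-0.97 ± 0.31, adjusted p = 0.0156), and its call ended without IR_DMSO replicate 1 (adjusted p = 0.0539), with scaling by library totals (-0.68, adjusted p = 0.0941) and by limma on log2 FPKM (-0.60 to -0.47, adjusted p = 0.13 to 0.281). PALB2 averaged 11.4 ± 2.49 CPM in IR_DMSO and 13.6 ± 1.36 CPM in Prolif_DMSO (-0.26 ± 0.18, adjusted p = 0.241).

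In end resection and break sensing, 5 of 7 genes fell. EXO1, a nuclease of long-range resection (chr1:241847967-241895148), had 4.74, 4.20 and 3.83 CPM in IR_DMSO and 30.01, 31.7 and 34.2 CPM in Prolif_DMSO. Its fall was 7.49-fold (-2.90 ± 0.13, adjusted p = 2.8e-14). BLM, the Bloom helicase, and DNA2, a nuclease that works with it, fell by 3.18 and 1.99 on the log2 scale. RBBP8 (CtIP), which starts resection, fell by 1.12, and MRE11, the nuclease of the break-sensing complex, by 0.77. The MRE11 call ended with scaling by library totals (-0.48, adjusted p = 0.0662) and by limma on log2 FPKM with either pseudocount (adjusted p = 0.125 and 0.13). NBN, of the same complex, averaged 47.3 ± 1.95 CPM in IR_DMSO and 51.7 ± 4.75 CPM in Prolif_DMSO (-0.13 ± 0.14, adjusted p = 0.459).

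RAD50, the arm of the break-sensing complex that tethers DNA ends (chr5:132556019-132646349), had 4.23, 6.36 and 5.41 CPM in IR_DMSO, against 3.83, 3.79 and 2.79 CPM in Prolif_DMSO. Every IR_DMSO library lay above every Prolif_DMSO library, by little in the case of replicate 1, and the rise was 1.53-fold (0.62 ± 0.23, adjusted p = 0.0313). It was not called without IR_DMSO replicate 2, IR_DMSO replicate 3 or Prolif_DMSO replicate 3 (adjusted p = 0.068 to 0.154). In GENCODE 44, 76.9% of the exon bases of RAD50 also belong to a readthrough gene on the same strand, which makes its counts uncertain. Its deposited FPKM values, made with another tool, were 14.8, 12.5 and 12.5 in IR_DMSO and 6.67, 5.74 and 6.32 in Prolif_DMSO.

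Of 8 helpers of strand exchange, 7 fell. RAD54L, the translocase that drives the exchange forward (chr1:46246461-46278480), had 2.66, 1.91 and 2.56 CPM in IR_DMSO and 21.8, 24.1 and 23.6 CPM in Prolif_DMSO, a fall of 9.71-fold (-3.28 ± 0.18, adjusted p = 3.35e-13). RAD51AP1, which stimulates the recombinase, fell by 2.61 and XRCC2 by 2.71. RAD54B, a relative of RAD54L, fell by 2.47, on counts of 18 to 33 reads in IR_DMSO libraries, and it shares 66.0% of its exon bases with FSBP on the same strand. The recombinase paralogs differed among themselves: XRCC3 fell by 1.42, RAD51D by 1.24 and RAD51C by 0.36 (adjusted p = 0.0124). For RAD51C the call ended when counts were scaled by library totals (-0.08, adjusted p = 0.618), and on FPKM the value was above 0 (0.04). XRCC3 overlaps KLC1 on the opposite strand over 76.7% of its exon bases, and the strand setting of the counting is not given in the sources used here. RAD52, a mediator of strand annealing, averaged 6.29 ± 0.511 CPM in IR_DMSO and 6.44 ± 0.387 CPM in Prolif_DMSO (-0.04 ± 0.15, adjusted p = 0.846).

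All 3 junction and meiotic factors fell. EME1, the partner of the MUS81 nuclease (chr17:50373220-50381483), had 2.93, 1.94 and 2.91 CPM in IR_DMSO, against 14.7, 15.8 and 15.1 CPM in Prolif_DMSO (5.84-fold lower, -2.55 ± 0.18, adjusted p = 4.4e-11). MND1, known for strand exchange in meiosis, was 6.38-fold lower (-2.67 ± 0.24), and the resolvase gene GEN1 2.81-fold lower (-1.49 ± 0.24).

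In the Fanconi core complex, 6 of 8 genes fell. FANCA (chr16:89726683-89816977) had 5.04, 6.04 and 5.17 CPM in IR_DMSO and 38.4, 41.5 and 42.0 CPM in Prolif_DMSO, a fall of 7.49-fold (-2.91 ± 0.14, adjusted p = 4.93e-14). FANCB, FANCG, FANCE, FANCC and FANCM fell by 1.10 (FANCM) to 2.29 (FANCB). FANCL, the ubiquitin ligase subunit, averaged 6.34 ± 0.323 CPM in IR_DMSO and 6.89 ± 0.682 CPM in Prolif_DMSO (adjusted p = 0.563). FANCF, an adaptor of the complex, averaged 7.81 ± 1.39 CPM in IR_DMSO and 8.38 ± 0.884 CPM in Prolif_DMSO (adjusted p = 0.644). The 95% intervals of their log2 changes were -0.46 to 0.21 for FANCL and -0.40 to 0.22 for FANCF, so that a fall of the size seen for FANCA lay outside them.

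The substrates of the core complex and the helicase BRIP1 all fell. FANCD2 (chr3:10026370-10101932), whose change had the smallest p of the 33 genes, had 5.25, 4.85 and 4.34 CPM in IR_DMSO, against 39.4, 39.8 and 41.6 CPM in Prolif_DMSO. The libraries within each group lay close together, and the fall was 8.36-fold (-3.06 ± 0.12, adjusted p = 2.91e-15). FANCI, its partner (-2.15 ± 0.12), and BRIP1 (-1.84 ± 0.32) fell less.

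Among 52 other genes of the pathways, 30 were called lower and 5 higher after irradiation, with a median log2 change of -0.59. Those that fell included UBE2T, the ubiquitin-conjugating enzyme that serves FANCL (-2.46), POLQ, the polymerase of the alternative end joining route (-2.45), USP1, which removes ubiquitin from FANCD2 (-1.94), and RPA1, which coats single strands (-0.94). The 5 higher ones were the break-signalling kinase gene ATM (0.93), BABAM2 (0.84), HELQ (0.80), BOD1L1 (0.79) and SFR1 (0.65).

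**Figure D2:**
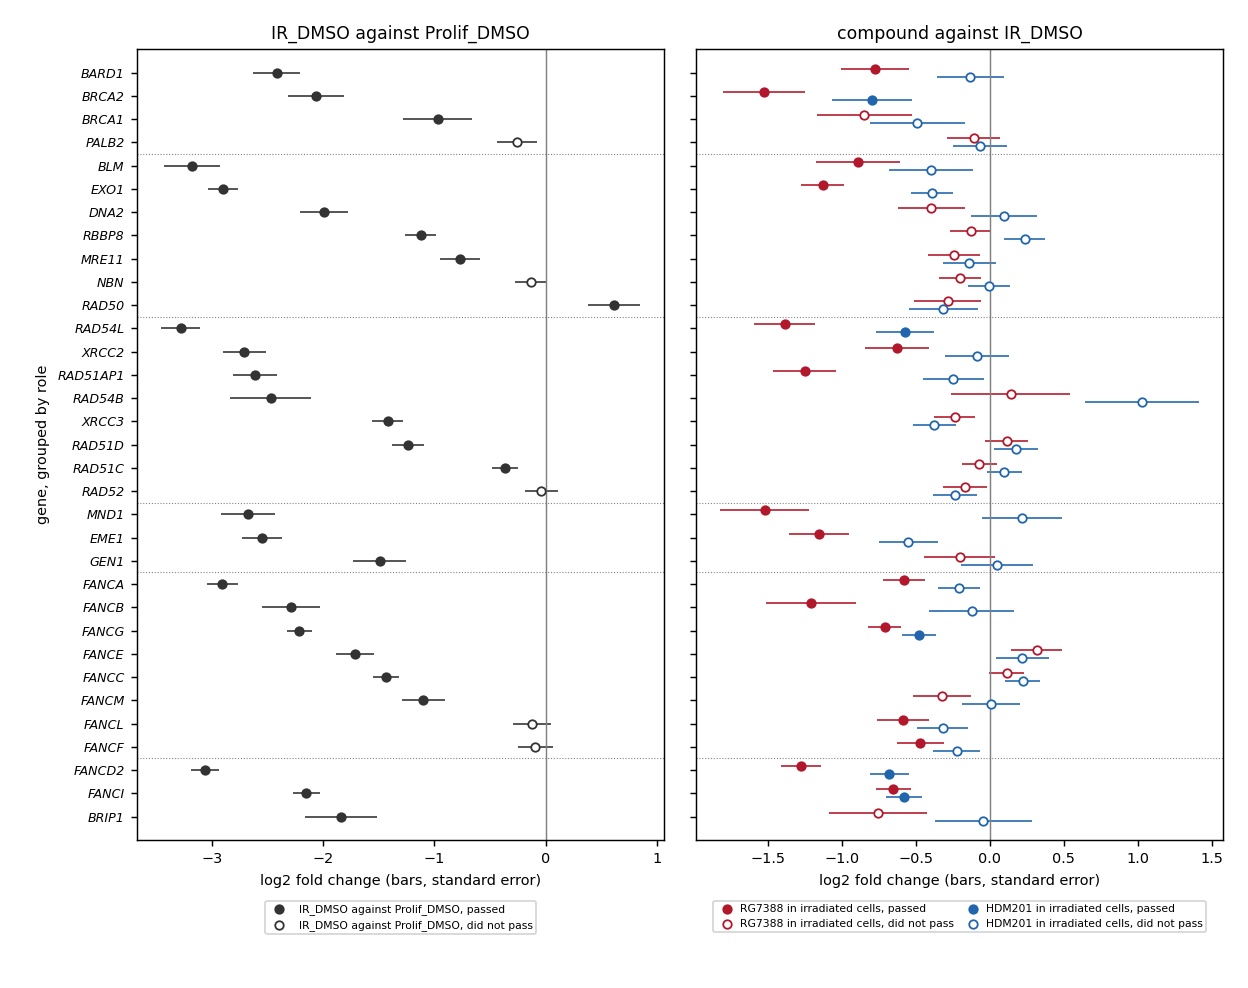
Log2 fold changes (points) with standard errors (bars) of the 33 genes by role, for IR_DMSO against Prolif_DMSO (left) and for RG7388 (red) and HDM201 (blue) against IR_DMSO (right). Filled points passed an adjusted p of 0.05. On the left 27 genes lie below 0 and pass and RAD50 passes above 0, while on the right 16 genes pass with RG7388 and 5 with HDM201, all below 0.

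The next comparison asked whether blocking MDM2 moved these genes further in cells already irradiated. With RG7388, 16 of the 33 genes were called lower and 0 higher than in IR_DMSO, where 11.9% of all genes tested were called lower and 10.9% higher. The median log2 change was -0.58, against -0.03 over all genes, and 29 of the 33 values were below 0, as were 53.3% of all genes. FANCD2 (-1.28 ± 0.13), EXO1 (-1.13 ± 0.15), RAD54L (-1.39 ± 0.21), BRCA2 (-1.53 ± 0.28) and MND1 (-1.52 ± 0.30) fell 2.19-fold to 2.89-fold below levels that irradiation had already lowered. Of the 20 cell cycle genes, 18 were called lower and 0 higher (median -1.03). The mean log2 CPM of the 33 genes was 2.14 to 2.18 in IR_RG7388 libraries, against 2.57 to 2.70 in IR_DMSO libraries. Of the 8 fibroblast markers 4 were called higher and 1 lower (summed level 24250 to 26260 CPM in IR_RG7388 and 17170 to 25370 CPM in IR_DMSO), and the summed epithelial markers reached 117.7 to 140.4 CPM in IR_RG7388, against 40.4 to 50.6 CPM in IR_DMSO. The part of these markers was not tested.

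FANCD2 had 1.67, 2.14 and 2.23 CPM in IR_RG7388, against 5.25, 4.85 and 4.34 CPM in IR_DMSO (adjusted p = 1.8e-07). EXO1 had 1.84, 2.01 and 2.02 CPM in IR_RG7388 and 4.74, 4.20 and 3.83 CPM in IR_DMSO (adjusted p = 3.6e-06). RAD54L had 0.781, 0.835 and 1.14 CPM in IR_RG7388 and 2.66, 1.91 and 2.56 CPM in IR_DMSO (adjusted p = 2.39e-05). By CPM, every IR_RG7388 library lay below every IR_DMSO library in each of these 3 genes. The FPKM of RAD54L overlapped, at 0.378, 1.28 and 0.759 in IR_RG7388 and 2.20, 0.782 and 1.37 in IR_DMSO.

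The genes that fell with RG7388 were spread over all 6 roles: BARD1 and BRCA2, EXO1 and BLM, XRCC2, RAD51AP1 and RAD54L, EME1 and MND1, FANCA, FANCB, FANCF, FANCG and FANCL, and FANCD2 and FANCI. FANCF (-0.47 ± 0.16, adjusted p = 0.0347) and FANCL (-0.59 ± 0.17, adjusted p = 0.0164) were in this group although neither was called after irradiation. BRCA1 (-0.85 ± 0.32, adjusted p = 0.0699) and BRIP1 (-0.76 ± 0.33, adjusted p = 0.12) did not pass, though all their IR_RG7388 values were below all their IR_DMSO values. Among the genes not called, alternative fits called BRCA1 in 7 settings, BRIP1 in 3 and XRCC3 in 1. MRE11, RAD50 and NBN, RAD51C, RAD51D, RAD52 and PALB2 had log2 changes between -0.29 (RAD50) and 0.11 (RAD51D) and were not called. DNA2, RBBP8, XRCC3, RAD54B, GEN1, FANCC and FANCM lay between -0.39 (DNA2) and 0.14 (RAD54B) and were not called either. FANCE (0.32 ± 0.17, adjusted p = 0.211) was the farthest above 0. Leaving out 1 library ended 5 of the 16 calls. These were BARD1 without IR_DMSO replicate 3 or IR_RG7388 replicate 3 (adjusted p = 0.0888 and 0.0896), BLM without replicate 1 of IR_DMSO or IR_RG7388 (0.178 and 0.169), and FANCL without IR_DMSO replicate 2 or IR_RG7388 replicate 1 (0.0528 and 0.0711). XRCC2 lost its call without any library other than IR_DMSO replicate 1 (0.0812 to 0.132), and FANCF without IR_DMSO replicate 1 or any IR_RG7388 library (0.0564 to 0.226). By limma on log2 FPKM with a pseudocount of 1, of 0.1 and with a minimum of 1 FPKM, 6, 7 and 10 of the 33 genes were called lower, where 5.49%, 4.55% and 16.8% of all genes tested were. RAD54L (-0.80 to -0.43, adjusted p = 0.133 to 0.29), BRCA2 (-1.10 to -0.41, adjusted p = 0.202 to 0.391), FANCA, FANCB, BARD1, BLM and XRCC2 were called in none of these 3 fits, FANCI and FANCF only in that with the minimum, and EXO1 in all but the first.

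Of the 52 other pathway genes, 9 were called lower and 2 higher with RG7388 in irradiated cells. PSMC3IP, which works with MND1, fell by 1.18, and CHEK1, a checkpoint kinase gene, by 0.89, while ERCC1, a nuclease subunit of cross-link repair, rose (0.68), as did FAAP100 of the core complex (0.51).

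With HDM201 in irradiated cells, 5 of the 33 genes were called lower and 0 higher, where 11.3% of all genes tested were called lower and 9.96% higher. FANCD2, FANCI, FANCG, RAD54L and BRCA2 were those called, and each was also called with RG7388, a comparison that uses the same IR_DMSO libraries. FANCD2 had 3.22, 2.99 and 2.71 CPM in IR_HDM201 and 5.25, 4.85 and 4.34 CPM in IR_DMSO (-0.68 ± 0.13, adjusted p = 0.000624). FANCI had 15.5, 12.8 and 12.9 CPM in IR_HDM201, against 20.9, 21.0 and 20.01 CPM in IR_DMSO (-0.58 ± 0.12, adjusted p = 0.00131). FANCG had 6.87, 7.73 and 7.33 CPM in IR_HDM201, against 10.2, 9.74 and 10.6 CPM in IR_DMSO (-0.48 ± 0.11, adjusted p = 0.00381). All IR_HDM201 libraries were below all IR_DMSO libraries in these 3 genes.

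BRCA2 (-0.80 ± 0.27, adjusted p = 0.0428) and RAD54L (-0.58 ± 0.20, adjusted p = 0.0402) stood near the threshold. BRCA2 was not called without IR_DMSO replicate 2 or 3 or without IR_HDM201 replicate 1 or 2 (adjusted p = 0.0613 to 0.16), nor RAD54L without IR_DMSO replicate 1 or 3 or without IR_HDM201 replicate 2 or 3 (0.0585 to 0.194). By limma on log2 FPKM in the same 3 fits, 2, 2 and 3 genes were called lower, where 5.18%, 4.26% and 14.7% of all genes tested were, and FANCD2 was not among them (-0.06 to -0.01). Without IR_HDM201 replicate 2 the count of genes called lower was 3, where 8.49% of all genes tested were. Some genes not called were called, in either direction, in alternative fits. These were EME1 in 6 settings, RAD54B and XRCC3 in 5 each, EXO1 and FANCL in 4 each, and BRCA1 and FANCC in 1 each. Over the 33 genes the median log2 change was -0.14, against -0.58 with RG7388, and 11 of the 20 cell cycle genes were called lower and 1, CCNE2, higher (median -0.72). The mean log2 CPM of the 33 genes was 2.41 to 2.58 in IR_HDM201 libraries. Of the 8 fibroblast markers 3 were called higher and 1 lower, and the summed epithelial markers reached 95.03 to 131.3 CPM in IR_HDM201, against 40.4 to 50.6 CPM in IR_DMSO, and the part of these was not tested. Of the 52 other pathway genes 3 were called lower (CHEK1, PSMC3IP and RECQL5) and 3 higher (ERCC1, FAAP100 and CENPX).

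**Figure D3:**
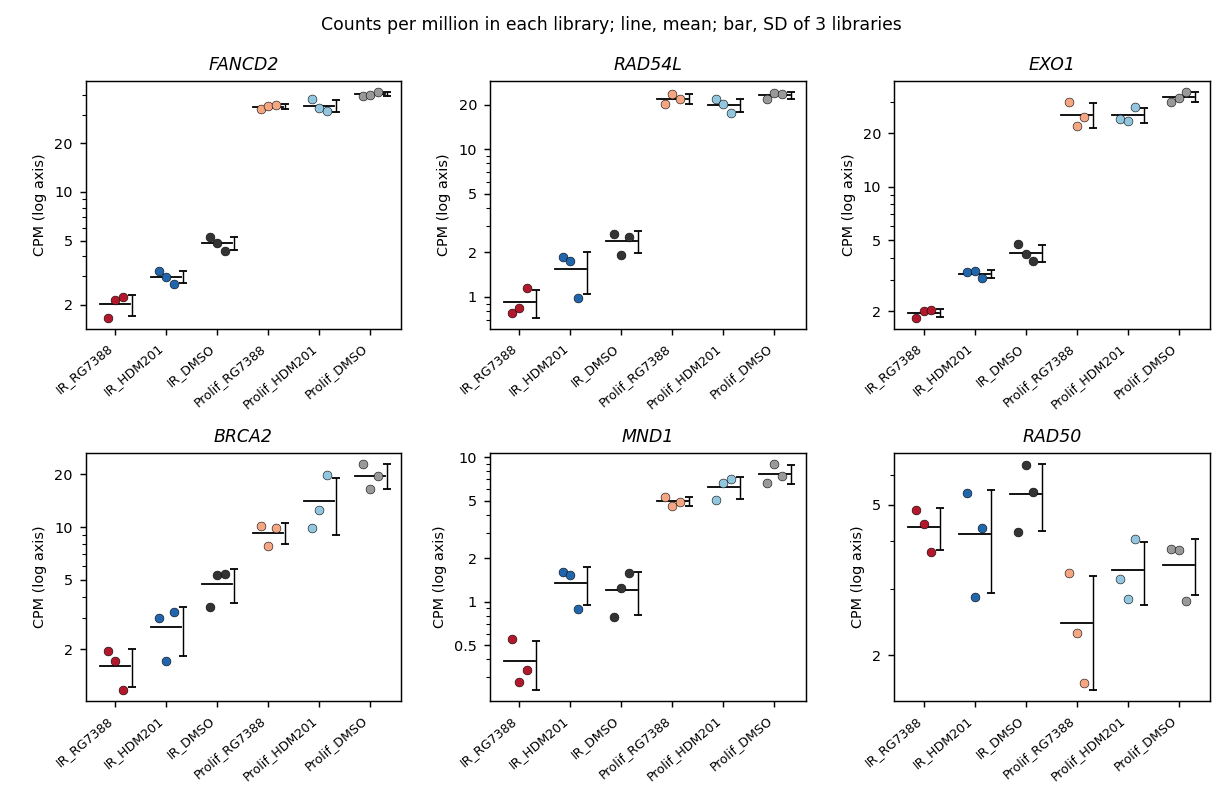
CPM on a log axis in each library (points) of the 6 groups for FANCD2, RAD54L, EXO1, BRCA2, MND1 and RAD50, with the mean (line) and SD (bar) of 3 libraries. Irradiated groups lie below proliferating groups in all panels but that of RAD50, and MND1 in IR_HDM201 overlaps IR_DMSO while in IR_RG7388 it lies below.

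RG7388 and HDM201, which differed in dose, were compared as dosed in irradiated cells. EXO1 and MND1 were called lower in IR_RG7388 than in IR_HDM201 and 0 genes higher. Of all genes tested, 0.226% were called lower and 0.00% higher. The median log2 difference over the 33 genes was -0.36, against -0.00 over all genes. Of the 33 values 29 were below 0, as were 50.8% of all genes, and 14 had an unadjusted p under 0.05, as did 7.2% of all genes. MND1 had 0.551, 0.279 and 0.337 CPM in IR_RG7388 and 1.61, 1.54 and 0.889 CPM in IR_HDM201 (-1.74 ± 0.30, adjusted p = 0.00688), on 9 to 36 reads in IR_RG7388 and 20 to 106 reads in IR_HDM201. EXO1 had 1.84, 2.01 and 2.02 CPM in IR_RG7388, against 3.31, 3.34 and 3.07 CPM in IR_HDM201 (-0.74 ± 0.15, adjusted p = 0.0318). RAD51AP1 had 1.95, 1.49 and 1.97 CPM in IR_RG7388, against 4.67, 2.86 and 3.07 CPM in IR_HDM201, and did not pass (-1.004 ± 0.22, adjusted p = 0.0614). The values did not overlap in these 3 genes, yet both calls were easily lost: EXO1 was not called without any 1 of the 6 libraries (adjusted p = 0.0565 to 0.285), and MND1 not without IR_HDM201 replicate 1, IR_RG7388 replicate 2 or IR_RG7388 replicate 3 (0.0556 to 0.132). The count was 0 without IR_HDM201 replicate 1, IR_RG7388 replicate 2 or IR_RG7388 replicate 3 (0.0106%, 0.105% and 0.116% of all genes tested), and 1 without IR_RG7388 replicate 1 (0.121%). For FANCI (95% interval -0.31 to 0.17), RAD51C (-0.40 to 0.06) and NBN (-0.48 to 0.08) the intervals of the difference included 0, while for RAD54L the interval was -1.24 to -0.38, although it did not pass over all genes (adjusted p = 0.204).

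In proliferating cells RG7388 was followed by 1 call among the 33 genes, BRCA2, and 0 higher, where 0.342% of all genes tested were called lower and 1.20% higher. BRCA2 (chr13:32315086-32400268) had 10.1, 7.81 and 9.86 CPM in Prolif_RG7388, against 22.9, 16.5 and 19.5 CPM in Prolif_DMSO, without overlap (-1.09 ± 0.25, adjusted p = 0.0298). It was not called without Prolif_DMSO replicate 1 or 3 or without any 1 of the Prolif_RG7388 libraries (adjusted p = 0.0786 to 0.171). RAD51AP1 had 20.01, 15.6 and 18.3 CPM in Prolif_RG7388 and 28.3, 23.97 and 27.3 CPM in Prolif_DMSO (-0.56 ± 0.18, adjusted p = 0.143). MND1 had 5.32, 4.59 and 4.91 CPM in Prolif_RG7388 and 6.66, 8.92 and 7.43 CPM in Prolif_DMSO (-0.63 ± 0.22, adjusted p = 0.202). Both genes were lower in every Prolif_RG7388 library without passing the test. Of the 33 values 31 were below 0 (median -0.23), as were 50.7% of all genes, and 12 of the 33 genes had an unadjusted p under 0.05, as did 13.1% of all genes. By limma on log2 FPKM BRCA2 was not called (-0.53 to -0.35, adjusted p = 0.613 to 0.914). None of the 20 cell cycle genes was called (median -0.31). Without IR_DMSO replicate 1 and Prolif_HDM201 replicate 3, 8 of the 33 genes and 8 of the 20 cell cycle genes were called lower, where 2.62% of all genes tested were. Neither library belongs to the groups compared here. They bear on the result through the shared estimate of spread, the filter, the scaling and the adjustment of p.

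With HDM201 in proliferating cells 0 of the 33 genes were called by edgeR or by DESeq2, where 0.154% of all genes tested were called lower and 0.545% higher, and 5 had an unadjusted p under 0.05, as did 10.3% of all genes. FANCI had 68.1, 62.5 and 81.2 CPM in Prolif_HDM201, against 86.8, 88.3 and 100.2 CPM in Prolif_DMSO (-0.38 ± 0.12, adjusted p = 0.182). EXO1 had 24.1, 23.6 and 28.2 CPM in Prolif_HDM201, against 30.01, 31.7 and 34.2 CPM in Prolif_DMSO (-0.34 ± 0.12, adjusted p = 0.29). BARD1 had 10.4, 10.4 and 17.5 CPM in Prolif_HDM201, against 18.5, 19.1 and 17.9 CPM in Prolif_DMSO (-0.52 ± 0.20, adjusted p = 0.323). In all 3 genes the third Prolif_HDM201 library was the highest of its group.

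This count turned on that library. Without Prolif_HDM201 replicate 3, 12 of the 33 genes were called lower and 0 higher, where 4.29% of all genes tested were called lower: MRE11, GEN1, BARD1, BRIP1, FANCI, FANCM, PALB2, BLM, BRCA2, NBN, EXO1 and RBBP8. Their log2 changes then ran from -0.96 (BRIP1, adjusted p = 0.0117) to -0.38 (NBN, adjusted p = 0.0302), and 5 of the 20 cell cycle genes were called lower. BRCA1 had 12.01, 11.5 and 30.7 CPM in Prolif_HDM201, against 17.4, 16.6 and 19.98 CPM in Prolif_DMSO. GEN1 had 14.6, 14.6 and 31.1 CPM in Prolif_HDM201, against 26.1, 21.1 and 25.8 CPM in Prolif_DMSO. FANCA, whose transcript is richer in G and C, had 35.7, 34.8 and 28.5 CPM in Prolif_HDM201, against 38.4, 41.5 and 42.0 CPM in Prolif_DMSO, with replicate 3 the lowest.

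The libraries differed by base composition of the transcript. Over the 13 genes whose longest transcript has under 40% GC, the median log2 difference from the Prolif_DMSO mean was -0.73, -0.56 and 0.20 in the Prolif_HDM201 libraries, and all 13 genes were below 0 in each of replicates 1 and 2 but only 4 in replicate 3. Over the 7 genes with 50% GC or more it was -0.08, -0.12 and -0.25. Across the 33 genes the Pearson correlation of this difference with GC content was 0.66, 0.59 and -0.69 in the 3 libraries, as a description in which all genes share a library. In the Prolif_RG7388 libraries it was 0.18, 0.65 and 0.21. Libraries given DMSO varied with GC content as well. The difference of each Prolif_DMSO library from its group mates had correlations of -0.60, 0.56 and -0.01 with GC content over the 33 genes. Differences from group mates varied with GC content beyond these genes as well. By this measure over 18083 genes, the correlations were 0.52, 0.34 and -0.56 in Prolif_HDM201. They were -0.24, 0.39 and -0.25 in Prolif_RG7388 and -0.05, 0.29 and -0.24 in Prolif_DMSO. The differences within a group cancel out, so its 3 correlations are not independent. Over all genes the difference from the Prolif_DMSO mean was not taken. A fit that took GC content and transcript length into account called 3 genes lower with RG7388 and 1 with HDM201, where 1.69% and 0.940% of all genes tested were called lower.

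**Figure D4:**
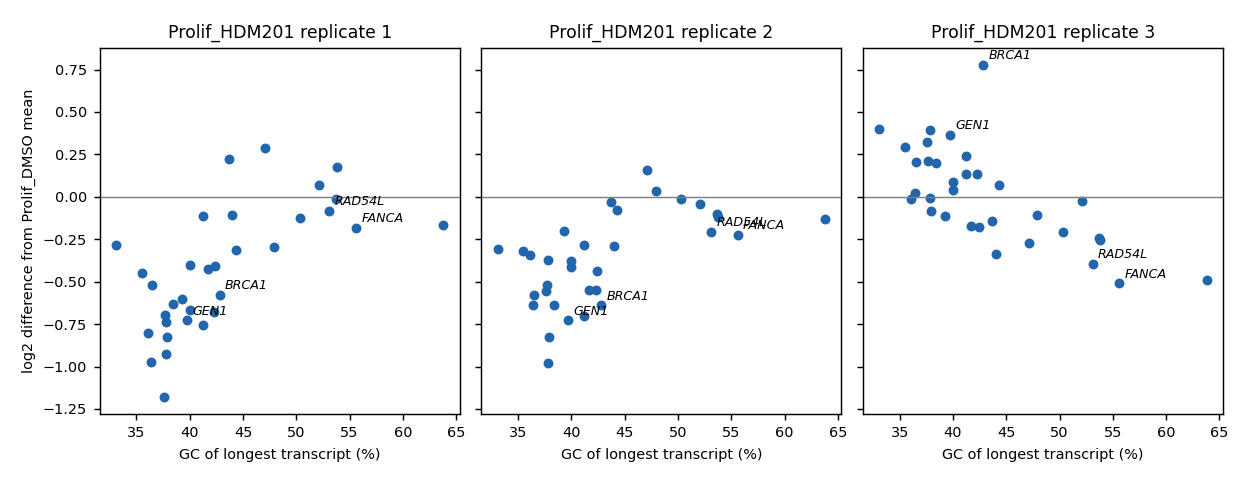
Log2 difference of each of the 33 genes from the Prolif_DMSO mean against the GC content of its longest transcript (%), in each Prolif_HDM201 library. Genes of low GC content lie below 0 in replicates 1 and 2 (medians -0.73 and -0.56 under 40% GC) and mostly above 0 in replicate 3 (median 0.20).

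The interaction of RG7388 with state asked whether the compound changed these genes differently in irradiated and in proliferating cells. Of the 33 genes, 5 had a more negative change in irradiated cells and 0 a more positive one, where 5.27% of all genes tested were called lower and 2.20% higher. FANCD2 changed by -1.28 ± 0.13 in irradiated cells and by -0.25 ± 0.11 in proliferating cells, a difference of -1.02 ± 0.18 (adjusted p = 0.000352). RAD54L changed by -1.39 ± 0.21 in irradiated and by -0.09 ± 0.15 in proliferating cells (difference -1.30 ± 0.26, adjusted p = 0.00162). EXO1 changed by -1.13 ± 0.15 in irradiated and by -0.33 ± 0.12 in proliferating cells (difference -0.80 ± 0.19, adjusted p = 0.0084). In proliferating cells FANCD2 had 32.5, 34.1 and 34.8 CPM with RG7388, against 39.4, 39.8 and 41.6 CPM with DMSO. RAD54L had 20.1, 23.6 and 21.8 CPM with RG7388 there, against 21.8, 24.1 and 23.6 CPM with DMSO, and EXO1 had 29.8, 21.9 and 24.7 CPM, against 30.01, 31.7 and 34.2 CPM. EME1 (difference -1.04 ± 0.26, adjusted p = 0.0131) and FANCG (-0.56 ± 0.16, adjusted p = 0.0261) also passed.

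By limma on log2 FPKM with a pseudocount of 1, of 0.1 and with a minimum of 1 FPKM, the differences of FANCD2 (-0.81 to -0.28, adjusted p = 0.441 to 0.701), RAD54L (-0.75 to -0.39, adjusted p = 0.481 to 0.698) and EXO1 (-0.79 to -0.38, adjusted p = 0.436 to 0.698) did not pass. EME1 was not called without IR_RG7388 replicate 2 (adjusted p = 0.0558), when the count was 3 and 4.03% of all genes tested were called lower. FANCG was not called in 7 of the 12 fits that left out 1 library (adjusted p = 0.0586 to 0.125). BRCA2, the gene called with RG7388 in both states, changed by -1.53 ± 0.28 in irradiated and by -1.09 ± 0.25 in proliferating cells (difference -0.44 ± 0.37, adjusted p = 0.584). Across the 33 genes the RG7388 changes in both states, which share no library, had a Pearson correlation of 0.45 and a Spearman correlation of 0.37, and 28 genes were below 0 in both, as were 32.6% of all genes. Of the 20 cell cycle genes, 13 had a more negative RG7388 change in irradiated cells.

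**Figure D5:**
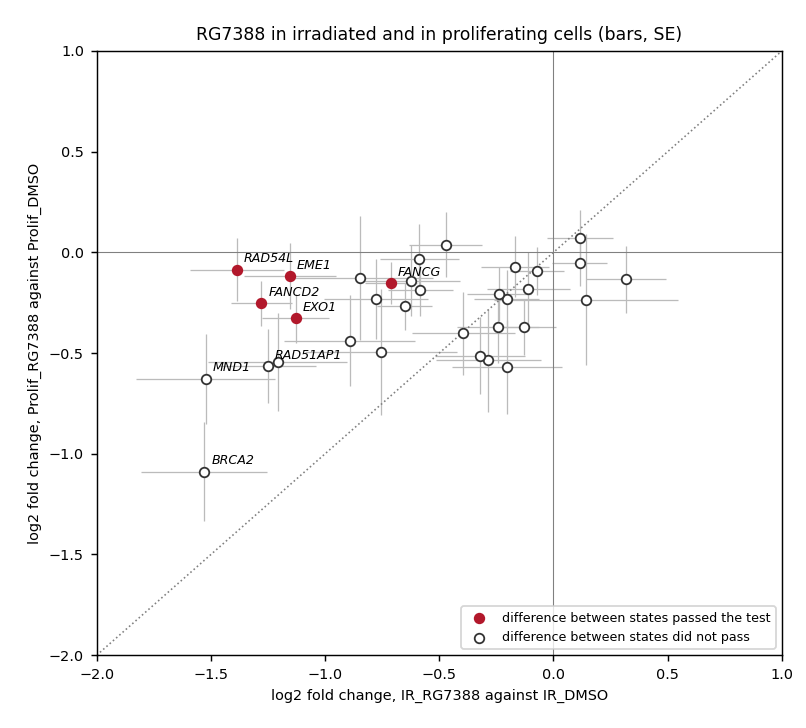
Log2 fold change with RG7388 in irradiated cells (x axis) and in proliferating cells (y axis) of the 33 genes, with standard errors (bars) and the line of equal change (dotted). FANCD2, RAD54L, EXO1, EME1 and FANCG (red), whose difference between states passed the test, lie left of the line, at -0.33 to -0.09 on the y axis.

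The interaction of HDM201 with state called 0 of the 33 genes by edgeR or by DESeq2, where 5.67% of all genes tested were called lower and 2.97% higher, and 4 had an unadjusted p under 0.05, as did 21.9% of all genes. RAD54B had the smallest p, with 1.54, 0.835 and 0.977 CPM in IR_HDM201, 0.404, 0.447 and 0.889 CPM in IR_DMSO, 1.38, 2.13 and 3.92 CPM in Prolif_HDM201 and 3.49, 2.63 and 3.36 CPM in Prolif_DMSO. The difference of 1.36 ± 0.50 did not pass (adjusted p = 0.102), the groups overlapped, and irradiated libraries held 18 to 101 reads. FANCD2 had 37.4, 32.98 and 31.9 CPM in Prolif_HDM201 and 39.4, 39.8 and 41.6 CPM in Prolif_DMSO, beside the fall in irradiated cells given above (difference -0.44 ± 0.17, adjusted p = 0.131). RBBP8 had 24.7, 24.6 and 21.5 CPM in IR_HDM201, 17.2, 23.2 and 19.8 CPM in IR_DMSO, 33.04, 32.8 and 46.2 CPM in Prolif_HDM201 and 46.0, 43.0 and 41.9 CPM in Prolif_DMSO (difference 0.46 ± 0.20, adjusted p = 0.166). Without Prolif_HDM201 replicate 3, 4 genes had a more positive change in irradiated cells, where 7.50% of all genes tested did: BRIP1, GEN1, RAD54B and RBBP8. Without IR_DMSO replicate 3 RAD54B alone did, where 2.50% of all genes tested did.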

How the data were processed

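The authors aligned poly(A) reads to hg38 with STAR in 2-pass mode and deposited raw counts per gene made with HTSeq and FPKM values made with Cufflinks. For tool versions, annotation release and strand setting, the sources used here give nothing. From what was deposited, 45 pseudoautosomal gene copies were left out, and gene IDs matched GENCODE 44 for 60295 of 60623 genes (99.46%), from which hg38 gene coordinates (1-based), exon overlaps and GC content were taken. Of the 33 genes 1 FPKM cell was blank and was set to 0. Library totals ranged from 21609198 to 66647700.

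Counts were fitted in R 4.3.3 with edgeR 4.0.16 (filterByExpr by group, TMM, robust quasi-likelihood fit, 1 mean per group over 18 libraries, 12 residual degrees of freedom). P-values were adjusted over 18151 genes, with a threshold of 0.05 and no fold minimum. Standard errors were obtained from the fold change and its F statistic (size over square root of F), and 95% intervals from them. DESeq2 1.42.0, limma 3.58.1 on log2 FPKM (pseudocounts 1 and 0.1), other scalings and filters, a replicate block, GC content and length offsets and leaving out libraries served as alternatives. The offsets and the joint removal of IR_DMSO replicate 1 and Prolif_HDM201 replicate 3 were chosen after seeing the data. The edgeR test was also run on simulated counts, which lacked the differences by GC content seen here, and the outcome is not given.

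Groups and replicate numbers came from the labels. The 33 genes, their 6 roles, the 52 other pathway genes, the 20 cell cycle genes and the markers were chosen with earlier results of these data known. Values in every library are given for the gene of each role with the smallest p after irradiation, every gene called higher, and the 3 genes with the smallest p in each compound comparison and interaction. BRCA1, GEN1 and FANCA in Prolif_HDM201 were added after their values were seen. Promoter windows are those of RefSeq.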

Additional observations from a re-analysis of the deposited data

Results flagged for a closer look

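RG7388 changed 5 genes by a different amount in irradiated and in proliferating cells, by the test of the difference itself (edgeR, adjusted over all genes). The difference between states was -1.02 on the log2 scale for FANCD2, -1.30 for RAD54L, -0.80 for EXO1, -1.04 for EME1 and -0.56 for FANCG, each with the more negative change in irradiated cells, where these genes stood at 0.919 ± 0.194 (RAD54L) to 6.19 ± 0.629 (FANCG) CPM in IR_RG7388. The calls for FANCD2, RAD54L and EXO1 held in each of the 12 fits that left out 1 library and ended in all 3 limma fits on log2 FPKM, where the differences were -0.28, -0.39 and -0.38 with a pseudocount of 1 (adjusted p = 0.698 to 0.701).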

How the results depend on the processing

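After irradiation the count of genes called lower was 23 to 28 over the alternatives (26 to 27 with 1 library left out) and that of genes called higher 0 to 1 with 1 library left out and 0 at an adjusted p under 0.01. At an adjusted p under 0.05 these alternatives called 5.24% (limma, pseudocount 0.1) to 31.0% (minimum of 1 CPM) of all genes tested lower. With 1 library left out, 21.8% to 24.6% of all genes tested were called lower and 21.6% to 23.5% higher. RAD51C turned to 0.0416 and 0.0434 by limma on FPKM with pseudocounts of 1 and 0.1, and to 0.0416 with a minimum of 1 FPKM. By limma with a pseudocount of 1, of 0.1 and with that minimum, the genes called lower numbered 6, 7 and 10 for RG7388 in irradiated cells, 2, 2 and 3 for HDM201 in irradiated cells, 0, 0 and 0 for RG7388 in proliferating cells, 0, 1 and 0 for RG7388 against HDM201, and 0, 1 and 3 for the RG7388 interaction, with FANCD2, RAD54L and EXO1 in none of the last. Of all genes tested, 0.0537%, 0.0403% and 0.288% were called lower for RG7388 in proliferating cells. For RG7388 against HDM201 these shares were 0.0112%, 0.0358% and 0.0351%, and for the RG7388 interaction 2.02%, 1.67% and 7.63%. The cause of the differences from edgeR was not tested.

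With an adjusted p under 0.01 the counts of genes called lower were 3 for HDM201 in irradiated cells and 0 for RG7388 in proliferating cells. They were 1 for RG7388 against HDM201 and 3 for the RG7388 interaction. The share of all genes called at that threshold is not given here, so these counts stand without a background. Scaling by library totals shifted the median of all genes by 0.288 after irradiation, -0.188 with RG7388 and -0.146 with HDM201 in irradiated cells, and -0.132 and -0.142 in the RG7388 and HDM201 interactions. It gave 8 genes lower for HDM201 in irradiated cells (18.5% of all genes tested) and 2 for its interaction (9.56%). A minimum of 1 CPM gave 8 for HDM201 in irradiated cells (14.3% of all genes tested). Fitting only the groups compared gave 7 for RG7388 in proliferating cells (3.04% of all genes tested) and 0 for RG7388 against HDM201 (0.00%), for which DESeq2 gave 5 (0.490%). RAD54B was called higher with HDM201 in irradiated cells without a filter and by DESeq2 (1 gene each, 3.07% and 11.6% of all genes tested). It was also called higher in the HDM201 interaction without a filter (1 gene, 1.01%). Offsets for GC content and length gave 2 higher for HDM201 in irradiated cells (17.4% of all genes tested) and 2 in its interaction (8.25%). They gave 3 lower for RG7388 (1.69%) and 1 for HDM201 (0.940%) in proliferating cells and 8 in the RG7388 interaction (7.24%). Without IR_DMSO replicate 1 and Prolif_HDM201 replicate 3, 8 genes were lower with RG7388 and 15 with HDM201 in proliferating cells (2.62% and 6.78% of all genes tested), 5 were lower in RG7388 against HDM201 (0.992%) and 5 higher in the HDM201 interaction (8.41%).

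With 1 library left out, 12 to 14 genes were lower for RG7388 in irradiated cells (8.15% to 9.96% of all genes tested). For HDM201 in irradiated cells 3 to 5 were lower (8.49% to 9.83%) and 0 to 1 higher (6.93% to 8.34%). In proliferating cells 0 to 1 were lower for RG7388 (0.0737% to 0.141%) and 0 to 12 for HDM201 (0.0426% to 4.29%). RG7388 against HDM201 had 0 to 3 lower (0.0106% to 0.220%). The RG7388 interaction had 3 to 5 lower (3.87% to 4.95%) and the HDM201 interaction 0 to 4 higher (1.77% to 7.50%). Whether replicate numbers pair the libraries was not settled: 9 of 45 pairs with the same number had correlated deviations over 0.1, and 8 of 18 libraries correlated best with their own number. A replicate block gave 27 genes lower after irradiation (25.1% of all genes tested), 16 with RG7388 (11.7%) and 5 with HDM201 (11.0%) in irradiated cells. It gave 1 higher (RAD54B) with HDM201 in irradiated cells (10.0%), and 1 lower in RG7388 against HDM201 (0.215%). MND1 and RAD54B rested on 9 to 106 reads in irradiated libraries, and the effect of depth on their values was not tested.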
